A study of Homo sapiens with 12 samples.

Results

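The 10 genes described here are clock genes and PAR bZIP factors: DBP, TEF, PER1, PER2, PER3, CRY1, CRY2, NR1D1, NR1D2 and ARNTL. They were taken from the gene tables by their symbols and are 10 of 57755 gene identifiers. The set was chosen with earlier results of these data known. All 10 passed the filter on low values that left 15610 genes for testing. RNA-seq was run on KYSE510 and TE7, a pair of established human lines of esophageal squamous cell carcinoma, each treated with the vehicle DMSO or with THZ1, a covalent inhibitor of the transcriptional kinase CDK7 that at higher doses also binds CDK12 and CDK13. There was 1 library per line for each of 6 conditions, namely DMSO, 50 nM THZ1 for 2, 4, 6 and 12 h, and 200 nM THZ1 for 6 h. The DMSO libraries are titled 0 h but carry a time label of 12 h, and DMSO libraries for 2, 4 or 6 h were not analysed here. KYSE510 was grown in RPMI-1640 and TE7 in DMEM, so line and medium cannot be told apart, and hours of THZ1 cannot be told apart from hours in culture.

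The mammalian clock is a transcriptional feedback loop. CLOCK and BMAL1, the product of ARNTL, bind E-box elements and drive the PER and CRY genes, whose proteins return to the nucleus and repress that drive, while REV-ERB receptors (NR1D1 and NR1D2) repress ARNTL through ROR elements. The PAR bZIP activators DBP and TEF are outputs of the loop and bind D-box elements, and many of these transcripts and proteins are known to turn over quickly.

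The windows around the start sites of these genes show where such elements lie. They come from RefSeq, build GRCh38.p14, and run from 250 bases before to 50 bases after an annotated start. All 10 genes matched, ARNTL under the symbol BMAL1, with 15 windows in all. The letters searched on both strands were CACGTG for the E-box, TTANNTAA for the D-box, AGGTCA for the core of a ROR element and TGACGTCA for the cAMP response element. No matches of different motifs shared a base. Of 35116 windows of this length, 7.26% held the E-box letters, 5.63% the D-box letters, 13.8% the ROR core and 1.85% the cAMP response element, which was found in 0 of the 10 genes. Capitals mark the matches in the following windows, printed 5′ to 3′ on the strand of the gene. DBP is shown because it was lowest relative to DMSO, and CRY2 because its transcript moved the opposite way. PER1, PER2 and NR1D2 are shown as examples of the genes that held such elements.
DBP, chr19:48637330-48637629, minus strand: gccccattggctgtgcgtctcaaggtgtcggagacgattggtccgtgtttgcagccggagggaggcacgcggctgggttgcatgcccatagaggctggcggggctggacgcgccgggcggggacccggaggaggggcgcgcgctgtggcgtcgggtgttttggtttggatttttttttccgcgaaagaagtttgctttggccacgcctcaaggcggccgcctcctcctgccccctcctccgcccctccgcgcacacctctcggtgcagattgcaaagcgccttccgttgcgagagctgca
PER1, chr17:8152355-8152654, minus strand: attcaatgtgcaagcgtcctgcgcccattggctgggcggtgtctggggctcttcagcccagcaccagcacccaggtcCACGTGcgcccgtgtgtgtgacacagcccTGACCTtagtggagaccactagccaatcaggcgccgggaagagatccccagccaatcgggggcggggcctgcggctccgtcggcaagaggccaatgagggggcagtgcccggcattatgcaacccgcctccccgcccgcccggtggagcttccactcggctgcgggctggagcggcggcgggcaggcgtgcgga
PER2, chr2:238288561-238288860, minus strand: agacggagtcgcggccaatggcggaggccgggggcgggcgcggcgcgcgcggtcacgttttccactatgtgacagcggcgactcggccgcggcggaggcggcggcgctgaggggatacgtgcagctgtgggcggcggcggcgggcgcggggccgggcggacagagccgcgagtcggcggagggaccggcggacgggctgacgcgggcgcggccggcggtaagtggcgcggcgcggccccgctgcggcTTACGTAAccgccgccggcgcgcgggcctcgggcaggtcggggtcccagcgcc
NR1D2, window 2, chr3:23945871-23946170, plus strand: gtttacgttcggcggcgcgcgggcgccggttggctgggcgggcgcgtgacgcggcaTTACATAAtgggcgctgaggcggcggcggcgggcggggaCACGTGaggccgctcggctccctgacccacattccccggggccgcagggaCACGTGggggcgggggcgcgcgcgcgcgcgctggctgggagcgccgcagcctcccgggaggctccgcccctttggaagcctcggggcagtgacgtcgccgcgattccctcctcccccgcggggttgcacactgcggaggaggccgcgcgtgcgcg
CRY2, window 2, chr11:45847225-45847524, plus strand: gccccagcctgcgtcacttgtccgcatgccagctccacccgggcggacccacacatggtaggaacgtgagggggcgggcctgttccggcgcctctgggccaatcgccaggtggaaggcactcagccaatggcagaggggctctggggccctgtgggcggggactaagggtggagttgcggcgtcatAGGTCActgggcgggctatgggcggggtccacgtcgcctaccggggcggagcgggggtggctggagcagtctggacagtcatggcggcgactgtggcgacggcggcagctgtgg

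The PER1 window held an E-box at bases 78 to 83 and a ROR core on the opposite strand at bases 107 to 112. In PER2 a D-box lay across the start site, at bases 248 to 255. The second NR1D2 window held a D-box at bases 57 to 64 and E-boxes at bases 96 to 101 and 146 to 151. The second CRY2 window held a ROR core at bases 187 to 192, and the first, not printed, held another at bases 189 to 194. The windows of DBP, NR1D1 and CRY1 held none of these letters. The first NR1D2 window and the second PER3 window also held none. Among the other genes, both TEF windows had an E-box and the first also a D-box, the first PER3 window had D-boxes at bases 74 to 81 and 115 to 122, and the ARNTL windows had a ROR core in the first and a D-box in the second. A match describes letters only and was not tested as a site.

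Some properties of the libraries touch every result below. FPKM (fragments per kilobase of transcript, scaled to the fragments mapped in the library) summed to 383975 to 729515 per library, and depth is unknown, since no source used here gives the number of fragments. All 5 epithelial and all 6 squamous marker genes reached 1 FPKM in both lines. Fibroblast markers summed to 7.15 to 11.3 FPKM in KYSE510 and 3.6 to 8.11 FPKM in TE7, CD68 was the only leukocyte marker to reach 1 FPKM, and the endothelial markers VWF and CDH5 stayed under 1 FPKM. The library labelled KYSE510 DMSO stood apart: over all tested genes its Pearson's r with KYSE510 at 2 h was 0.879, and the same pair in TE7 gave 0.976. Among its keratins KRT19 was 11.0 FPKM against 666 FPKM at 2 h, KRT14 28.7 against 449 FPKM and KRT6A 14.4 against 1500 FPKM, while KRT5 (1474 against 1343 FPKM), KRT8 (679 against 432 FPKM) and KRT18 (478 against 259 FPKM) were not lower. KYSE510 at 200 nM was also low in KRT19 (0.852 FPKM) and KRT14 (2.62 FPKM), but not in KRT6A (930 FPKM). The 200 nM libraries correlated with the 50 nM library of the same line at 6 h at r = 0.855 in KYSE510 and 0.865 in TE7. Every direction against DMSO draws on the first library and every dose comparison on the others. For members of the gene set and for counts over all genes, some results are given below with and without these libraries. Single genes outside the set are given only from the fit with all libraries. The part of the libraries that stood apart in the calls of those genes was not tested.

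Under 50 nM THZ1 most of the 10 genes followed 3 courses that both lines shared. DBP and TEF were highest in DMSO and lower at every later time. PER1, PER2, PER3, NR1D1 and ARNTL were highest at 2 h and lower at each time after it. CRY1 and CRY2, the partners of the PER proteins in the repressor complex, were lowest in DMSO and highest at 12 h. NR1D2 stood above DMSO at 2, 4 and 6 h and under it at 12 h. In RNA from whole cultures, fewer cells with a transcript and less of it per cell cannot be told apart.

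**Figure D1:**
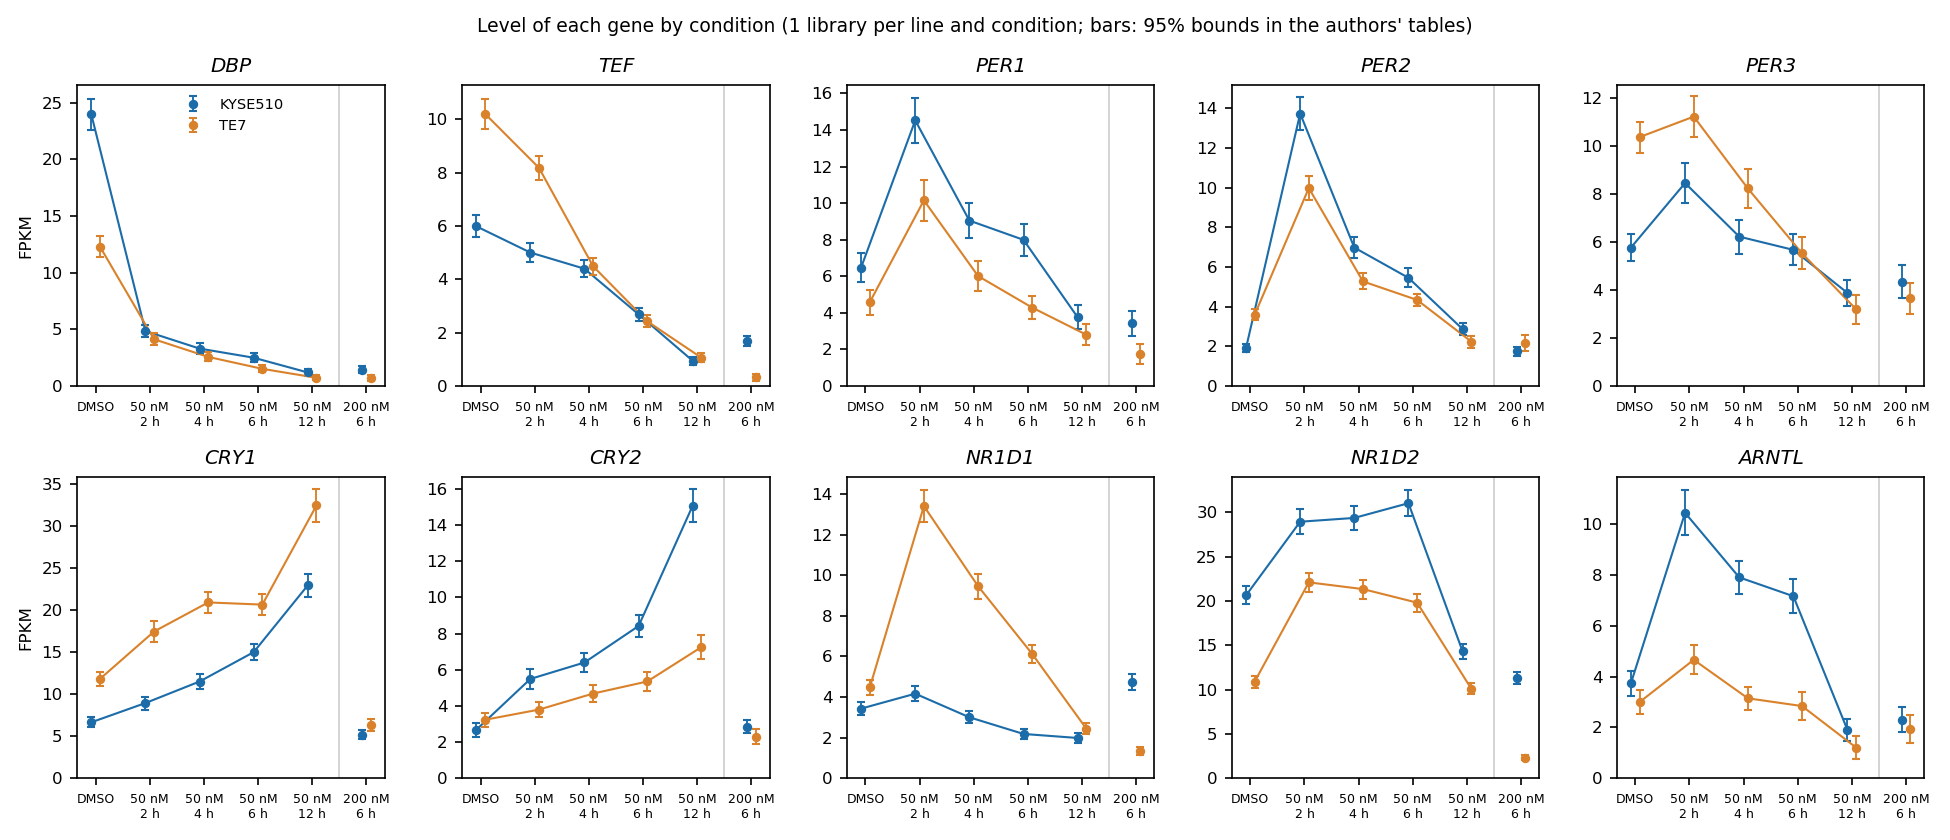
Each panel plots the level of 1 gene in FPKM against condition, with KYSE510 in blue and TE7 in orange, 1 library per point, and bars for the 95% bounds given in the authors' tables. DBP and TEF descend from DMSO in both lines, the PER genes and ARNTL peak at 2 h, and CRY1 and CRY2 climb to 22.9 and 15.1 FPKM in KYSE510 and to 32.4 and 7.25 FPKM in TE7 at 12 h.

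These courses were described after the values were seen, and some are common. Among all 15610 tested genes, 7.7% were lower at every step from DMSO to 12 h in both lines, 8.79% were highest at 2 h, and 2.34% were lowest in DMSO and highest at 12 h. A level that was lower at every step from 2 to 12 h was found in 7 of the 10 genes and in 24.4% of all tested genes. The tables give 95% bounds for each value, which cover counting error only. These bounds overlapped for 37 of the 100 pairs of neighbouring conditions in the order of levels, so those orders are not settled by counting.

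Changes are differences in log2(FPKM + 1), averaged over both lines (n = 2) with the standard error of limma, in a fit across all tested genes with Benjamini-Hochberg adjustment and a threshold of 0.05. The pseudocount of 1 understates changes of low values, so ratios of FPKM are given beside them. For all results but the slopes, the lines stand in as the replicates. Their p-values reflect the spread among these 12 libraries alone, which may be partly technical. Against DMSO, 0 of the 10 genes passed at 2 h, where 0.0128% of all genes did, and 4 had an unadjusted p under 0.05, as did 1683 of all genes. At 4 h 1 gene passed, downward, where 0.0769% of all genes passed, 0.0256% upward and 0.0512% downward. At 6 h 1 gene passed, again downward, where 4.71% of all genes passed, 0.692% upward and 4.02% downward. At 12 h 5 genes passed, 2 upward and 3 downward, where 28.4% of all genes passed, 3.27% upward and 25.2% downward. The median change of the 10 genes was 0.61 at 2 h, 0.44 at 4 h, 0.23 at 6 h and -0.61 at 12 h, while the median over all genes was 0.0031, -0.06, -0.15 and -0.42. Without the library labelled KYSE510 DMSO and both 200 nM libraries, with TE7 DMSO as the only control, 3, 2, 4 and 8 of the 10 genes passed at 2, 4, 6 and 12 h, and 1.25%, 10.7%, 24.5% and 52.3% of all genes. In that fit PER2 and NR1D2 rose and DBP fell at 2 h, NR1D2 rose and DBP fell at 4 h, NR1D2 and CRY1 rose and DBP and TEF fell at 6 h, and at 12 h PER1 (-0.65, adjusted p = 0.0240), PER2 and ARNTL (-1.11, adjusted p = 0.0137) fell beside the 5 genes named below that passed with all libraries. Without TE7 DMSO, which leaves the library labelled KYSE510 DMSO as the only control, DBP (-2.01, limma adjusted p = 0.00534), PER1 (1.09, adjusted p = 0.0329) and PER2 (2.23, adjusted p = 0.00651) passed at 2 h, where 11% of all genes did. In that fit 2 genes passed at 4 h, DBP and PER2 (1.39, adjusted p = 0.0229), and 12.8% of all genes. At 6 h 4 passed, DBP downward and PER2, CRY1 and CRY2 upward, and 16.4% of all genes.

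Between 2 and 12 h, a comparison that needs neither DMSO nor 200 nM libraries, 8 of the 10 genes passed, 2 upward (CRY1 and CRY2) and 6 downward (DBP, TEF, PER1, PER2, PER3 and ARNTL). Of all genes 21.9% passed, 1.88% upward and 20% downward, and the median change was -1.46 in the 10 genes and -0.43 in all genes. A slope over the 4 times at 50 nM passed in all 10 genes, upward in CRY1 and CRY2. Of all genes 68.6% passed, 12.8% upward and 55.8% downward. The p-values and standard errors of slopes come from the 8 libraries at 50 nM. They measure the scatter about a straight line within the unreplicated course of each line, not the spread between cultures. Without the 3 libraries that stood apart all 10 genes passed from 2 to 12 h, and 55.2% of all genes. FPKM is a share of the library, and scaling bears on the balance of directions. Under median-of-ratios scaling the median of all genes at 12 h against DMSO moved from -0.42 to 0.033, a shift of 0.45, and the genes called moved from 510 upward and 3929 downward to 1803 and 1677. Between 2 and 12 h they moved from 293 upward and 3126 downward to 1312 and 997. The 10 genes then split 2 upward and 2 downward at 12 h against DMSO, and 2 upward and 4 downward from 2 to 12 h.

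**Figure D2:**
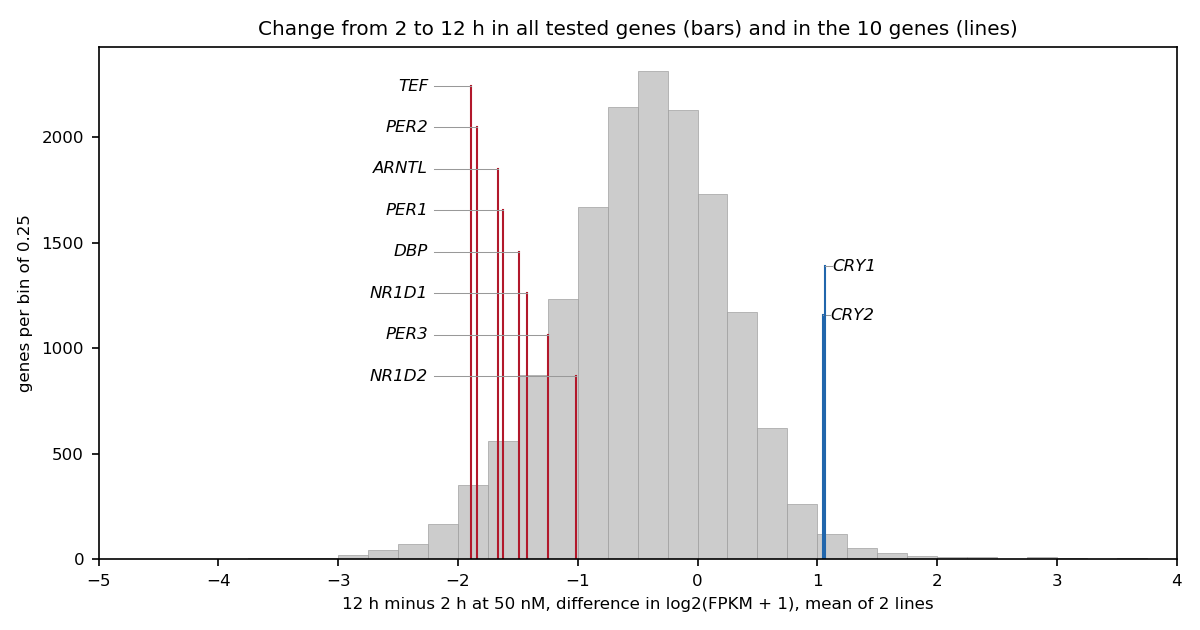
Grey bars count all tested genes by their difference in log2(FPKM + 1) between 12 and 2 h at 50 nM, the mean of both lines, in bins of 0.25, and lines mark the 10 genes, red for lower and blue for higher at 12 h. CRY1 (1.06) and CRY2 (1.05) lie to the right of all but 1.39% and 1.47% of the genes, while TEF (-1.89), PER2 (-1.84), ARNTL (-1.67) and PER1 (-1.63) lie on the left flank.

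DBP (ENSG00000105516; hg19 chromosome 19, 49133287 to 49140695), the PAR bZIP activator of D-box promoters, had the lowest mean change against DMSO of the 10 genes at each time and dose. In KYSE510 it was 24.0 FPKM in DMSO and 4.85, 3.31, 2.50 and 1.2 FPKM after 2, 4, 6 and 12 h at 50 nM, with 1.42 FPKM at 200 nM. TE7 had 12.3 FPKM in DMSO and 4.13, 2.57, 1.52 and 0.732 FPKM at the same times, with 0.731 FPKM at 200 nM. All treated libraries lay under both DMSO libraries, and within each line only the values at 12 h and 200 nM, and in KYSE510 at 4 and 6 h, had overlapping bounds as neighbours. The ratio of DMSO to treated FPKM was 4.94 in KYSE510 and 2.98 in TE7 at 2 h, and 20.0 and 16.8 at 12 h.

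The change of DBP was -1.73 ± 0.24 at 2 h, which did not pass (limma adjusted p = 0.124), although only 0.692% of all genes had a lower value. It fell by 2.22 ± 0.24 at 4 h (adjusted p = 0.0420), by 2.62 ± 0.24 at 6 h (adjusted p = 0.0156) and by 3.22 ± 0.24 at 12 h (adjusted p = 0.00108), in both lines each time. At 4 h DBP was the only 1 of the 10 genes to pass, but the call was lost without the KYSE510 DMSO library (adjusted p = 0.125) and without any 1 of the 8 libraries at 50 nM (adjusted p of 0.119 to 0.704). At 6 h it was lost without any 1 of the libraries at 2, 4 or 6 h (adjusted p of 0.0525 to 0.232), and at 12 h it held in all 23 alternatives where DBP was tested. Without the KYSE510 DMSO library and both 200 nM libraries the changes were -1.44, -1.92, -2.32 and -2.93 at 2, 4, 6 and 12 h, and each passed (adjusted p = 0.0369, 0.0165, 0.00535 and 0.000566).

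The 3′ end of DBP overlaps SPHK2, the gene of a sphingosine kinase, by 688 of its 7409 bases in the authors' coordinates, and no source used here says whether counting used strand. SPHK2 was 8.28 FPKM in KYSE510 DMSO and 11.3 FPKM at 2 h, when DBP was already low, and 2.06 FPKM at 12 h. SPHK2 in TE7 was 7.14 FPKM in DMSO, 5.41 FPKM at 2 h and 1.03 FPKM at 12 h. It fell by 1.80 ± 0.30 at 12 h (limma adjusted p = 0.00484), while at 2 h its change was 0.03 ± 0.30 (adjusted p = 0.983). Reads of the shared bases cannot be told apart between the genes without strand.

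TEF (ENSG00000167074; chromosome 22, 41763337 to 41795330), the paralogous PAR bZIP activator, was also lower at each later time, with less of a difference at 2 h. In KYSE510 it was 5.99 FPKM in DMSO, then 5.0, 4.4, 2.69 and 0.946 FPKM at 2, 4, 6 and 12 h, and 1.68 FPKM at 200 nM. In TE7 it was 10.2 FPKM in DMSO, then 8.18, 4.49, 2.43 and 1.06 FPKM, and 0.329 FPKM at 200 nM. The DMSO libraries were the highest of their lines, and every treated value of a line lay under its DMSO value. At 2 h DMSO stood 1.2 times above the treated value in KYSE510 and 1.25 times in TE7, against 4.94 and 2.98 times for DBP. TEF fell by 2.14 ± 0.40 at 12 h (limma adjusted p = 0.00681), in all 23 alternatives, while its change of -1.32 ± 0.40 at 6 h did not pass (adjusted p = 0.0987). Without the 3 libraries that stood apart it was -1.58 at 6 h (adjusted p = 0.0110) and -2.41 at 12 h (adjusted p = 0.000958). TEF fell between 2 and 12 h by 1.89 ± 0.40 (adjusted p = 0.0147), a call that was lost without any 1 of the libraries at 2 or 12 h (adjusted p of 0.0630 to 0.129) and under median-of-ratios scaling (adjusted p = 0.0559).

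**Figure D3:**
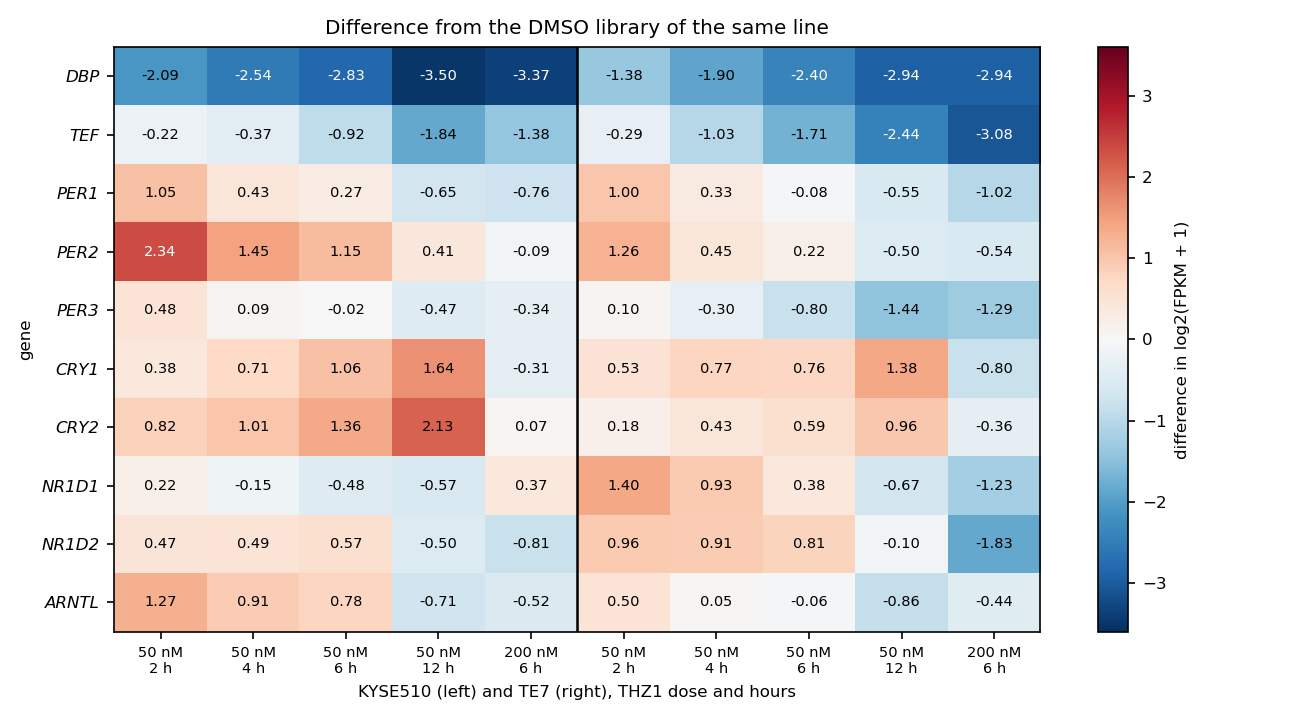
Each cell gives the difference in log2(FPKM + 1) between a treated library and the DMSO library of the same line, with KYSE510 on the left and TE7 on the right, red for higher and blue for lower. DBP is below DMSO in all 10 columns, from -1.38 to -3.50, and PER2 at 2 h stands highest, at 2.34 in KYSE510.

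PER1, PER2 and PER3 encode the PERIOD subunits of the repressor complex, and PER1 and PER2 are also known as immediate early genes of serum and glucocorticoid signals. PER1 (ENSG00000179094; chromosome 17, 8043790 to 8059824) was 6.48 FPKM in KYSE510 DMSO, 14.5, 9.05, 7.99 and 3.76 FPKM at 2, 4, 6 and 12 h, and 3.42 FPKM at 200 nM. TE7 had 4.58 FPKM in DMSO, 10.2, 6.02, 4.29 and 2.81 FPKM at those times, and 1.75 FPKM at 200 nM. The 2 h libraries stood above all others of their line, and in TE7 the bounds of DMSO overlapped those of 4 h and of 6 h, which did not overlap each other. At 2 h PER1 was 2.24 times its DMSO level in KYSE510 and 2.22 times in TE7, a change of 1.03 ± 0.21 that did not pass (limma adjusted p = 0.257). Of all genes 4.04% had a higher value.

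PER2 (ENSG00000132326; chromosome 2, 239152679 to 239198743) was 1.92 FPKM in KYSE510 DMSO, 13.7, 6.98, 5.46 and 2.87 FPKM at 2, 4, 6 and 12 h, and 1.74 FPKM at 200 nM. The level in TE7 was 3.6 FPKM in DMSO, 9.99, 5.28, 4.34 and 2.25 FPKM at those times, and 2.17 FPKM at 200 nM. KYSE510 had the lower DMSO value and the higher value at 2 h. At 2 h PER2 was 7.17 times its DMSO level in KYSE510 and 2.77 times in TE7, a change of 1.80 ± 0.30 that did not pass (limma adjusted p = 0.205), although only 0.91% of all genes had a higher one. Without the 3 libraries that stood apart, with TE7 DMSO alone as the control, the change was 1.31 (adjusted p = 0.0359). At 12 h the lines lay on opposite sides of DMSO, at 1.5 times the DMSO level in KYSE510 and 0.624 times in TE7.

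PER3 (ENSG00000049246; chromosome 1, 7844380 to 7905237) was 5.78 FPKM in KYSE510 DMSO, 8.47, 6.24, 5.68 and 3.88 FPKM at 2, 4, 6 and 12 h, and 4.35 FPKM at 200 nM. TE7 had 10.4 FPKM in DMSO, 11.2, 8.24, 5.54 and 3.20 FPKM at those times, and 3.66 FPKM at 200 nM. Its peak at 2 h was the smallest of the 3, at 1.47 and 1.08 times DMSO, and in TE7 its bounds overlapped those of DMSO. PER3 fell by 0.96 ± 0.28 at 12 h against DMSO (limma adjusted p = 0.0398), by 0.47 in KYSE510 and 1.44 in TE7. That call was lost without TE7 DMSO (adjusted p = 0.144), without any 1 of the 8 libraries at 50 nM (adjusted p of 0.0650 to 0.224), and under median-of-ratios scaling (adjusted p = 0.262).

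From 2 to 12 h all 3 PER genes fell. The fall was 1.63 ± 0.21 in PER1 (limma adjusted p = 0.00348), 1.84 ± 0.30 in PER2 (adjusted p = 0.00690) and 1.25 ± 0.28 in PER3 (adjusted p = 0.0196). In FPKM the 2 h level was 3.86 and 3.62 times the 12 h level for PER1 in KYSE510 and TE7, 4.78 and 4.45 times for PER2, and 2.18 and 3.51 times for PER3. The values at 2 and 12 h did not overlap between times in any of the 3 genes. Leaving out 1 library at 2 or 12 h moved the changes to between -1.75 and -1.5 for PER1, -2.05 and -1.63 for PER2, and -1.48 and -1.02 for PER3. Calls were lost without the TE7 2 h library in all 3 (adjusted p = 0.0542, 0.0557 and 0.148), and in PER2 and PER3 also without the KYSE510 2 h (adjusted p = 0.0728 and 0.0970) or TE7 12 h library (0.0577 and 0.139). Median-of-ratios scaling left the change of PER3 at -0.70 (adjusted p = 0.113).

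CRY1 and CRY2 encode the cryptochromes, which repress CLOCK and BMAL1. These were the only 2 of the 10 genes whose FPKM rose with time at 50 nM in the fit of all 12 libraries. FPKM is a share of the library, so a rise in the amount per cell was not shown. CRY1 (ENSG00000008405; chromosome 12, 107385142 to 107487607) was 6.65 FPKM in KYSE510 DMSO, 8.94, 11.5, 15.0 and 22.9 FPKM at 2, 4, 6 and 12 h, and 5.16 FPKM at 200 nM. TE7 had 11.8 FPKM in DMSO, 17.4, 20.9, 20.6 and 32.4 FPKM at those times, and 6.34 FPKM at 200 nM. In both lines the 12 h library was highest and the 200 nM library lowest, and only the TE7 values at 4 and 6 h overlapped as neighbours. At 12 h CRY1 stood at 3.45 times its DMSO level in KYSE510 and 2.75 times in TE7. It rose by 1.51 ± 0.22 (limma adjusted p = 0.00302), a call kept in 23 of 24 alternatives and lost in the fit with no cell-line block (adjusted p = 0.0652). Without the 3 libraries that stood apart the rise was 1.47 (adjusted p = 0.00175).

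CRY2 (ENSG00000121671; chromosome 11, 45868669 to 45904798) was 2.68 FPKM in KYSE510 DMSO, 5.49, 6.40, 8.42 and 15.1 FPKM at 2, 4, 6 and 12 h, and 2.86 FPKM at 200 nM. The level in TE7 was 3.23 FPKM in DMSO, 3.80, 4.68, 5.35 and 7.25 FPKM at those times, and 2.29 FPKM at 200 nM. The level stood higher at every step from DMSO to 12 h in both lines, as it did in 1.02% of all tested genes, although neighbouring steps up to 6 h overlapped in TE7. At 12 h CRY2 stood at 5.63 times its DMSO level in KYSE510 and 2.24 times in TE7. It rose by 1.55 ± 0.29 (limma adjusted p = 0.00699), and it did so in all 24 alternatives, whose values ran from 0.98 to 2.05. Without the 3 libraries that stood apart the rise was 1.15 (adjusted p = 0.00617).

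From 2 to 12 h CRY1 rose by 1.06 ± 0.22 (limma adjusted p = 0.0143) and CRY2 by 1.05 ± 0.29 (adjusted p = 0.0366). The call of CRY1 was lost without any 1 of the libraries at 2 or 12 h (adjusted p of 0.0688 to 0.131), and that of CRY2 without any 1 of the 8 libraries at 50 nM (adjusted p of 0.0567 to 0.20). Under equal sums of FPKM the change of CRY2 was 0.83 and did not pass (limma adjusted p = 0.0911). The direction held in each case. CRY1 at 6 h against DMSO was 0.91 ± 0.22 (adjusted p = 0.0588) and CRY2 was 0.97 ± 0.29 (adjusted p = 0.0950), and neither passed.

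The balance of CRY to PER transcripts, a ratio that no scaling of a library can alter, lay further toward CRY at each time from 2 to 12 h. The ratio restates the values given above for these genes, and PER and CRY proteins were not measured. The summed FPKM of CRY1 and CRY2 divided by that of the 3 PER genes was 0.658 in KYSE510 DMSO, 0.393 at 2 h, 0.804 at 4 h, 1.22 at 6 h and 3.61 at 12 h. The ratio in TE7 was 0.810 in DMSO, 0.677 at 2 h, 1.31 at 4 h, 1.83 at 6 h and 4.81 at 12 h. The ratio was thus lowest at 2 h and highest at 12 h in both lines, and at 200 nM it was 0.843 and 1.14. The cryptochromes made up 11.5% of the summed FPKM of the 10 genes in KYSE510 DMSO and 55.2% at 12 h, and 20.2% and 62.5% in TE7. DBP made up 29.5% in KYSE510 DMSO and 1.74% at 12 h, and 16.5% and 1.15% in TE7. These shares are levels per length and were not tested.

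**Figure D4:**
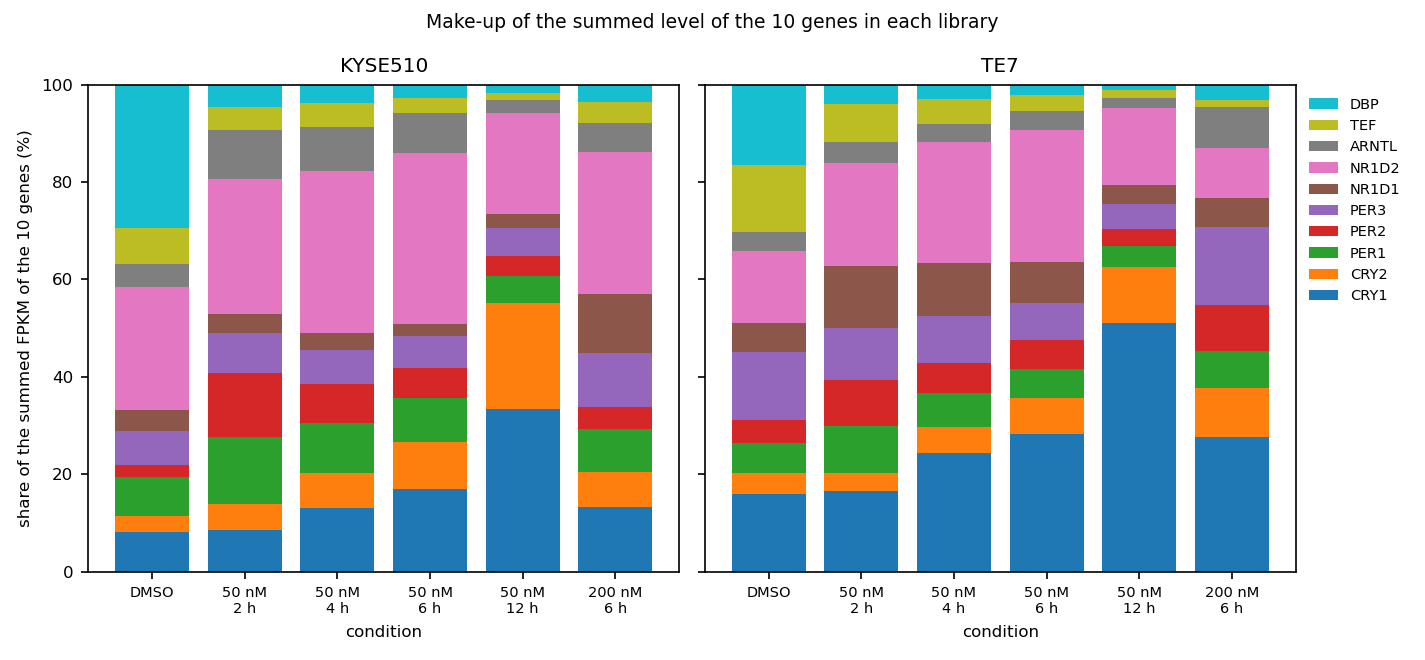
Bars divide the summed FPKM of the 10 genes in each library into the percent share of each gene, for KYSE510 on the left and TE7 on the right. CRY1 and CRY2 together fill 55.2% of the KYSE510 bar and 62.5% of the TE7 bar at 12 h, against 11.5% and 20.2% in DMSO.

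NR1D1 and NR1D2 encode REV-ERB alpha and beta, heme-binding nuclear receptors that repress ARNTL. NR1D1 (ENSG00000126368; chromosome 17, 38249040 to 38256978) was 3.43 FPKM in KYSE510 DMSO, 4.17, 3.0, 2.18 and 1.99 FPKM at 2, 4, 6 and 12 h, and 4.73 FPKM at 200 nM. The level in TE7 was 4.47 FPKM in DMSO, 13.4, 9.46, 6.12 and 2.45 FPKM at those times, and 1.33 FPKM at 200 nM. The lines differed in shape: at 2 h the level was 1.21 times DMSO in KYSE510 and 3.0 times in TE7, and the 200 nM library was the highest in KYSE510 and the lowest in TE7. NR1D1 passed in none of the contrasts with DMSO, of doses or of 12 with 2 h. Its slope over the 4 times was -0.138 ± 0.0151 per hour on the log2 scale (limma adjusted p = 0.000228), at -0.0716 in KYSE510 and -0.205 in TE7, and this call was lost in the fit with no cell-line block (adjusted p = 0.0793). NR1D1 shares 1081 of its 7939 bases with THRA, the thyroid hormone receptor gene known to lie on the opposite strand, which ran from 2.93 to 10.2 FPKM.

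NR1D2 (ENSG00000174738; chromosome 3, 23986751 to 24022109) was 20.6 FPKM in KYSE510 DMSO, 28.9, 29.4, 31.0 and 14.3 FPKM at 2, 4, 6 and 12 h, and 11.3 FPKM at 200 nM. In TE7 it was 10.9 FPKM in DMSO, 22.1, 21.3, 19.8 and 10.1 FPKM at those times, and 2.34 FPKM at 200 nM. In both lines the values at 2, 4 and 6 h formed a plateau whose neighbours overlapped, above DMSO and above 12 h. The changes at 2, 4 and 6 h did not pass. Its slope was -0.108 ± 0.0175 per hour (limma adjusted p = 0.00139) and rested on 12 h: without the KYSE510 library at 12 h it was -0.0435 (adjusted p = 0.161), and without that of TE7 -0.0710 (adjusted p = 0.135).

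ARNTL (ENSG00000133794; chromosome 11, 13298199 to 13408813), which encodes the activator BMAL1 and is repressed by REV-ERB, was 3.74 FPKM in KYSE510 DMSO, 10.4, 7.90, 7.16 and 1.90 FPKM at 2, 4, 6 and 12 h, and 2.3 FPKM at 200 nM. The level in TE7 was 3.0 FPKM in DMSO, 4.66, 3.15, 2.84 and 1.21 FPKM at those times, and 1.95 FPKM at 200 nM. The 2 h library was highest in both lines, and in TE7 the values of DMSO, 4 h and 6 h overlapped as neighbours. At 2 h ARNTL stood at 2.79 times DMSO in KYSE510 and 1.55 times in TE7, a change of 0.89 ± 0.32 that did not pass (limma adjusted p = 0.407). From 2 to 12 h it fell by 1.67 ± 0.32 (adjusted p = 0.0106), a call lost without any 1 of the libraries at 2 or 12 h (adjusted p of 0.0539 to 0.0981). The 2 h level was 5.50 times the 12 h level in KYSE510 and 3.86 times in TE7.

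The dose comparison at 6 h set 200 nM against 50 nM. All but NR1D1 stood lower at 200 than at 50 nM in both lines, which was also true of 55.5% of all tested genes. Of the 10 genes 5 fell, namely NR1D2, CRY1, CRY2, PER2 and PER1, and 0 rose, where 24.8% of all genes passed, 2.94% upward and 21.9% downward. NR1D2 fell most, by 2.01 ± 0.36 (limma adjusted p = 0.00690), with 31.0 and 11.3 FPKM in KYSE510, and 19.8 and 2.34 FPKM in TE7, at 50 and 200 nM. CRY1 fell by 1.47 ± 0.22 (adjusted p = 0.00345), at 2.90 and 3.26 times more FPKM at 50 than at 200 nM in KYSE510 and TE7. CRY2 fell by 1.12 ± 0.29 (adjusted p = 0.0260), PER2 fell by 0.995 ± 0.304 (adjusted p = 0.0475) and PER1 fell by 0.98 ± 0.21 (adjusted p = 0.0127).

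Those calls lean on the libraries and on the scaling. Without the KYSE510 library at 50 nM and 6 h none of the 5 passed, with adjusted p of 0.0531 for CRY1, 0.0570 for NR1D2, 0.144 for PER1, 0.183 for CRY2 and 0.261 for PER2, and without that of TE7 only CRY1 passed. PER2 was also lost without any 1 other library at 50 nM (adjusted p of 0.0700 to 0.151) and without KYSE510 at 200 nM (0.141), and CRY2 without any 1 of the libraries at 2 or 4 h (0.0523 to 0.0546) and without KYSE510 at 200 nM (0.0730). Under median-of-ratios scaling 2 of the 10 genes passed, and the genes called moved from 459 upward and 3412 downward to 1382 and 1365. In that fit CRY2 was at -0.62 (adjusted p = 0.145), PER1 at -0.49 (adjusted p = 0.162) and PER2 at -0.53 (adjusted p = 0.230). NR1D1 went in opposite directions, at 2.17 times more FPKM at 200 than at 50 nM in KYSE510 and 4.61 times less in TE7.

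**Figure D5:**
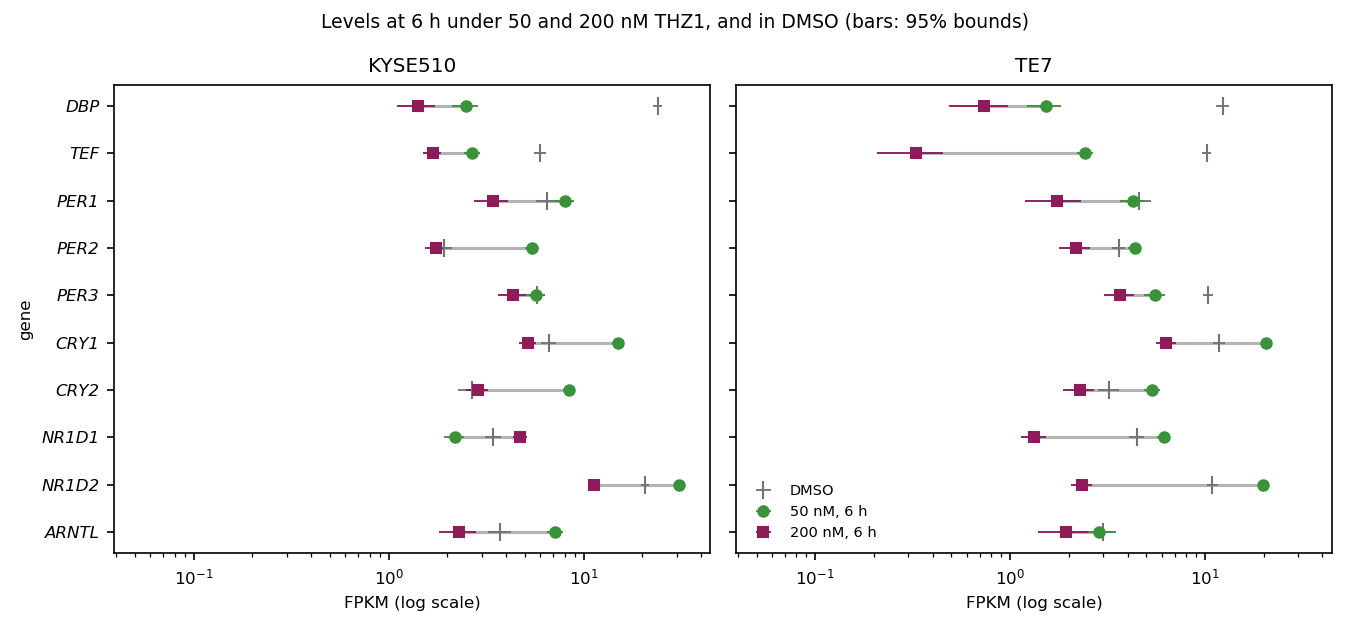
For each gene the FPKM at 6 h under 50 nM (green circles) and 200 nM (purple squares) and in DMSO (grey ticks) is plotted on a log axis, KYSE510 on the left and TE7 on the right, 1 library per point with the 95% bounds of the authors' tables. CRY1 at 200 nM lies at 5.16 and 6.34 FPKM, left of DMSO, while at 50 nM it lies right of it, at 15.0 and 20.6 FPKM.

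Against DMSO, which the comparisons at 50 nM share as their control, 200 nM gave 4 genes that fell and 0 that rose, where 38.5% of all genes passed and 35.3% downward. DBP fell by 3.15 ± 0.24 (limma adjusted p = 0.000372) and TEF by 2.23 ± 0.40 (adjusted p = 0.00401), each in all 22 alternatives where it was tested. NR1D2 fell by 1.32 ± 0.36 (adjusted p = 0.0229) and PER1 by 0.89 ± 0.21 (adjusted p = 0.0125). The last pair was lost under median-of-ratios scaling (adjusted p = 0.328 and 0.488), which moved the median of all genes from -0.65 to -0.013, and NR1D2 also without either DMSO library (adjusted p = 0.0807 and 0.0638). The genes called moved from 503 upward and 5503 downward to 1898 and 1890. DBP at 200 nM and 6 h was 1.42 and 0.731 FPKM, beside 1.2 and 0.732 FPKM at 50 nM and 12 h. CRY1 and CRY2, the genes that rose by 12 h at 50 nM, were at 0.776 and 1.07 times DMSO in KYSE510 and 0.537 and 0.708 times in TE7. The change of CRY1 was -0.56 ± 0.22 (adjusted p = 0.0798), and its direction turned under median-of-ratios and upper-quartile scaling, to 0.21 and 0.22.

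Differences between the lines were tested over the 6 conditions. DBP, PER1, NR1D2 and ARNTL were higher and CRY1 was lower in KYSE510 than in TE7, each in the same direction in 6 of 6 conditions. Of all genes 46.3% passed, 17.5% higher in KYSE510 and 28.9% lower. The count of 5 of the 10 genes lay near the share of all genes and is no result about the set. The difference was 0.53 ± 0.12 for PER1 (limma adjusted p = 0.00926), 0.77 ± 0.21 for NR1D2 (adjusted p = 0.0185), 0.67 ± 0.18 for ARNTL (adjusted p = 0.0193), 0.45 ± 0.14 for DBP (adjusted p = 0.0315) and -0.60 ± 0.13 for CRY1 (adjusted p = 0.00703). DBP was lost without any 1 of the 8 libraries at 50 nM (adjusted p of 0.0562 to 0.0929), ARNTL without any 1 of those at 2, 4 or 6 h (0.0667 to 0.0703), and CRY1 under equal sums of FPKM (-0.28, adjusted p = 0.115). Under equal sums the genes called moved from 2728 upward and 4504 downward to 4418 and 2701.

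The slopes over 2 to 12 h were compared between the lines directly, and 0 of the 10 genes passed, where 6.12% of all genes did, 3.57% with the higher slope in KYSE510 and 2.56% with the lower. Of the 10 genes 4 had an unadjusted p under 0.05. The slope of NR1D1 differed by 0.133 ± 0.0302 per hour, steeper downward in TE7 (limma adjusted p = 0.0511). CRY2 had a slope of 0.133 per hour in KYSE510 and 0.0751 in TE7, a difference of 0.0583 ± 0.0178 (adjusted p = 0.0913). These tests too rest on the scatter about a straight line within the unreplicated course of each line. They do not show that the lines act alike. Without the 3 libraries that stood apart, 8 of the 10 genes differed in level between the lines, and 68.4% of all genes.

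Other genes share bases with members in the authors' coordinates. NKIRAS1 overlaps NR1D2 by 1332 of its 35359 bases and ran from 0.532 to 5.30 FPKM, and it fell by 0.95 ± 0.22 at 12 h (limma adjusted p = 0.0152). UTS2 overlaps PER3 by 2095 of its 60858 bases, reached 4.22 FPKM in TE7 DMSO, and did not exceed 0.0709 FPKM in KYSE510. RP3-467L1.4 lies within PER3 and did not exceed 1.14 FPKM. The others, RP11-599B13.6 at PER1, AC096574.4 and AC012485.1 at PER2, RNU6-495P at TEF, RP11-797M17.1 at CRY1 and RN7SKP151 at ARNTL, did not exceed 0.332 FPKM in any library. The part of the shared bases in the members' values was not tested.

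Across the 12 libraries, after each line was centred on its own mean, some pairs of members moved closely together. Pearson's r was 0.937 for CRY1 and CRY2, 0.929 for TEF and PER3, 0.910 for PER1 and PER2, and 0.893 for PER2 and ARNTL. The libraries share their time course and their DMSO and 200 nM samples, so these values only describe the shapes. Among the 9185 or 9186 other genes with a mean of at least 5 FPKM, the nearest in shape to DBP were the histone demethylase gene KDM3B (r = 0.982), TBC1D17 (0.979) and NUDCD2 (0.976). KDM3B was 25.3 and 13.6 FPKM in DMSO and 9.01 and 4.41 FPKM at 12 h in KYSE510 and TE7. Nearest to PER2 were AEN (0.952), SPRY2, a feedback inhibitor of receptor tyrosine kinase signalling (0.945), and the AP-1 gene FOSB (0.945). Nearest to CRY2 were the proton pump gene ATP6V0C (0.991), the proteasome receptor gene ADRM1 (0.990) and YKT6 (0.975), and to CRY1 WDR74 (0.977).

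Of 37 other clock genes listed by role, 33 were tested. At 2 and 4 h 0 passed in either direction, at 6 h 1 rose and 0 fell, and at 12 h 0 rose and 5 fell: CLOCK, BHLHE41, CSNK1D, BTRC and WEE1, the last pair named after their values were seen. Between 2 and 12 h 7 fell and 0 rose, and at 200 nM 13 fell against DMSO and 14 against 50 nM, with 0 that rose in each. Of all genes 25.2% fell at 12 h, 20% between 2 and 12 h, 35.3% at 200 nM against DMSO and 21.9% between doses. The counts at 12 h, between 2 and 12 h and at 200 nM against DMSO are thus no result about clock genes. Under median-of-ratios scaling the genes called between doses were 1382 upward and 1365 downward, and the count of 14 was not examined there. The median change of the 33 genes at 12 h was -0.36, beside -0.42 for all genes. Among the activators, CLOCK, the partner of BMAL1, fell by 1.55 ± 0.34 at 12 h (limma adjusted p = 0.0132), with 7.23 FPKM in DMSO and 0.986 FPKM at 12 h in KYSE510, and 6.23 and 2.49 FPKM in TE7. The KYSE510 level of CLOCK was already 2.71 FPKM at 2 h, against 7.28 FPKM in TE7. In KYSE510 the level at 2 h is set beside the DMSO library that stood apart, whose part was not tested. ARNTL2, a paralogue of ARNTL, was 17.3 and 21.3 FPKM in DMSO and 36.7 and 30.8 FPKM at 2 h, and it did not pass at any time against DMSO.

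Among the repressors, BHLHE41 (DEC2) fell by 1.01 ± 0.26 at 12 h (limma adjusted p = 0.0224), with 1.16 FPKM in DMSO and 0.0105 FPKM at 12 h in KYSE510, and 1.57 and 0.354 FPKM in TE7. It reached 1 FPKM only in the DMSO libraries and in TE7 at 2 h (1.25 FPKM). Without the DMSO libraries it would not have passed the filter, so its call against DMSO is no independent support for a fall. In KYSE510 it was already 0.0298 FPKM at 2 h. BHLHE40 (DEC1) was 29.6 and 20.1 FPKM in DMSO and 7.19 and 6.73 FPKM at 12 h, and did not pass. At 200 nM it was 26.7 FPKM in KYSE510 and 4.25 FPKM in TE7. CIART, which binds BMAL1, was 2.81 FPKM in KYSE510 DMSO, at most 0.504 FPKM at 50 nM and 3.27 FPKM at 200 nM. In TE7 CIART was 8.72 FPKM in DMSO, 15.3 FPKM at 2 h and 0.689 FPKM at 200 nM. The KYSE510 DMSO and 200 nM libraries stood apart, and their part in these levels was not tested. RORA did not exceed 1.48 FPKM, and RORB and the third PAR bZIP gene HLF did not pass the filter. NFIL3 (E4BP4), which represses through the D-box that DBP and TEF activate, was 12.8 and 8.20 FPKM at 50 nM and 6 h and 0.956 and 1.07 FPKM at 200 nM. It fell by 2.49 ± 0.31 between the doses (limma adjusted p = 0.00177) and did not pass at 50 nM against DMSO.

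Of the kinases and ubiquitin ligases of PER and CRY turnover, 2 of 9 tested fell at 12 h, 6 at 200 nM against DMSO and 6 against 50 nM, beside 25.2%, 35.3% and 21.9% of all genes. CSNK1D, the casein kinase that marks PER proteins for decay, fell by 1.19 ± 0.36 at 12 h (limma adjusted p = 0.0401), with 51.5 FPKM in DMSO and 34.0 FPKM at 12 h in KYSE510, and 80.6 and 22.5 FPKM in TE7. CSNK1E was 49.6 and 57.2 FPKM in DMSO and 49.2 and 100 FPKM at 12 h, and CSNK2B was 138 and 106 FPKM and then 181 and 93.8 FPKM, and neither passed. Of the 6 partners of the PER and CRY complex, 0 passed at 12 h, and NONO was 175 and 304 FPKM in DMSO and 327 and 220 FPKM at 12 h.

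Among the 10 clock-controlled outputs, CDKN1A, the cyclin kinase inhibitor p21, was 21.8 and 10.2 FPKM in DMSO, 66.6 and 17.7 FPKM at 2 h and 8.83 and 6.20 FPKM at 12 h. It fell by 2.08 ± 0.33 from 2 to 12 h (limma adjusted p = 0.00613). GADD45A was 22.7 and 9.43 FPKM in DMSO, 45.5 and 54.6 FPKM at 2 h and 22.3 and 18.5 FPKM at 12 h, with no call in those contrasts. NOCT, the gene of a clock-controlled phosphatase, was the 1 gene of the list that rose at 6 h, by 1.47 ± 0.27 (limma adjusted p = 0.0307), and was named after its values were seen. It was 2.53 and 1.51 FPKM in DMSO, 9.67 and 7.95 FPKM at 2 h, and 8.08 and 6.50 FPKM at 6 h.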

How the data were processed

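RNA-seq of polyadenylated RNA (RNeasy extraction, TruSeq libraries, HiSeq, per the labels' protocols) was measured in 12 libraries, 1 per line and condition. The authors deposited a table of FPKM per gene and library, with Cufflinks tracking columns and 95% bounds, per the file headers. STAR, Cufflinks and hg19 are named per the submitters' processing notes. Versions, gene annotation and strand handling are unstated, being not given in the sources used here. Depth is unknown, and the bounds come from 1 library each and cover no variation between cultures.

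Each table has 57869 lines for 57755 identifiers, and the 108 identifiers at several loci were summed. Genes that reached 1 FPKM in 2 or more libraries (15610) were tested on log2(FPKM + 1) with limma 3.58.1 in R 4.3.3, with terms for condition and cell line, variances that follow the mean, two-sided tests and Benjamini-Hochberg adjustment over all genes at 0.05. Slopes per hour were fitted per line to the 8 libraries at 50 nM. Residual degrees of freedom were 5 plus 2.86 from the prior (slopes 4 plus 2.97). A shared replicate number marks a shared cell line, which gives the pairing, and line is the block. The model was tested on simulated data with known changes. These data had independent noise and no library that stood apart, so they cannot show how the model handles such libraries.

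Members and lists were chosen with earlier results of these data known. All members are named. Other clock genes are named by role, at most 4 per role by highest mean FPKM, beside genes overlapping a member and the 3 nearest patterns of DBP and of up to 3 further members. Alternatives were the highest locus of an identifier, pseudocounts of 0.1 or 5, no low-value filter, a filter at mean FPKM 5, 3 other scalings, variances with no mean trend or robust, log2 hours, no block, each library left out, and 3 libraries left out together. Estimates are given for members with an unadjusted p under 0.05 in a comparison. Promoter windows came from RefSeq GRCh38.p14, a build other than that of the loci. Some genes of the lists are not reported here.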

Additional observations from a re-analysis of the deposited data

Results flagged for a closer look

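In 9 results the lines moved in opposite directions. With 1 library per line and condition, the difference between lines was not tested in any of them. Values are differences in log2(FPKM + 1) within a line. NR1D1, for REV-ERB alpha, gave 4 of the 9. Its change against DMSO was -0.15 in KYSE510 and 0.94 in TE7 at 4 h, -0.48 and 0.38 at 6 h, and 0.37 and -1.23 at 200 nM. Between 200 and 50 nM it was 0.85 in KYSE510 and -1.61 in TE7. The slope of NR1D1 over 2 to 12 h at 50 nM, which was compared between the lines, is given above.

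PER1 was at 0.27 in KYSE510 and -0.08 in TE7 at 6 h, PER3 at 0.094 and -0.30 at 4 h, and PER2 at 0.41 and -0.50 at 12 h. ARNTL was at 0.78 and -0.06 at 6 h, and CRY2 at 0.069 and -0.36 at 200 nM against DMSO. Of these, 8 use the library labelled KYSE510 DMSO, which stood apart, and its part in them was not tested.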

How the results depend on the processing

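Over 60 estimates of single members and 1342 alternative values, 1147 kept direction and side of the threshold, 154 kept direction but no longer passed, 38 passed newly and 3 reversed. The reversals were CRY1 at 200 nM against DMSO under median-of-ratios scaling (0.21) and upper-quartile scaling (0.22), beside the slope difference of ARNTL (-0.0698 with all libraries), which ran from -0.0837 to 0.0077 with 1 library left out and turned without KYSE510 at 12 h. The counts of members called follow, and their causes were not tested, except at a mean FPKM of at least 5. That filter left out DBP, TEF, NR1D1 and ARNTL, with means of 4.94, 3.95, 4.73 and 4.19 FPKM. In the fits of slopes it left out DBP, TEF and ARNTL. These members were not tested there, so the lower counts under it do not show lost calls. At 4 and 6 h it left out DBP, the only member called.

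Against DMSO at 2 h (0 called), 3 passed without the 3 libraries that stood apart, and 0 to 3 with 1 library left out. At 4 h (1 called), 0 passed with a pseudocount of 0.1, a mean FPKM of at least 5, equal sums, median-of-ratios or upper-quartile scaling, and with no replicate block; 2 passed without the 3 libraries and 0 to 2 with 1 left out. At 6 h (1 called), 0 passed at a mean FPKM of at least 5 and with no replicate block, 2 under median-of-ratios scaling, 4 without the 3 libraries and 0 to 4 with 1 left out. At 12 h (5 called), 3 passed at a mean FPKM of at least 5 and with no replicate block, 8 without the 3 libraries and 4 to 6 with 1 left out.

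At 200 nM against DMSO (4 called), 2 passed at a mean FPKM of at least 5, under each of the 3 scalings and with no replicate block, and 3 to 7 with 1 left out. Between doses (5 called), 3 passed with a pseudocount of 5, 2 with no filter, equal sums or median-of-ratios scaling, 1 under upper-quartile scaling, 0 with no replicate block, and 0 to 6 with 1 left out. From 2 to 12 h (8 called), 4 passed with no filter, 5 at a mean FPKM of at least 5, 2 with no replicate block, and 0 to 10 with 1 left out. The slopes (10 called) gave 9 to 10 with 1 left out, 9 with no replicate block, where NR1D1 was lost (-0.138, adjusted p = 0.0793), and 7 at a mean FPKM of at least 5. Their difference (0 called) gave 2 with a pseudocount of 5 and 1 with robust variances, and 0 with any 1 left out. Between lines (5 called), 2 passed with no filter, 3 at a mean FPKM of at least 5, 8 without the 3 libraries and 3 to 6 with 1 left out.

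No fit with no replicate block was made for the line and slope difference comparisons, which test the line term itself. Leaving the 3 libraries out was not run for slopes or 200 nM. With 1 library left out, the lone library of that condition is assumed to vary like the others. Over all genes the numbers called moved as well. Against DMSO they ran from 0 to 1717 at 2 h (2 as reported) and 0 to 1991 at 4 h (12), both highest without TE7 DMSO, which leaves the library labelled KYSE510 DMSO as the only control. They ran from 0 to 3819 at 6 h (736), 1657 to 8166 at 12 h (4439), 2795 to 6653 at 200 nM (6006), 882 to 5311 between doses (3871) and 325 to 8609 from 2 to 12 h (3419). For slopes they were 5715 to 11215 (10712), for slope differences 0 to 1719 (956) and between lines 4024 to 10679 (7232).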
